A study of Mus musculus with 8 samples.

Results

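The genes described here encode acute-phase proteins and partners of theirs: A2m, Serpina3n, Serpina3g, Saa3, Lcn2, Orm1, Hp, Cp and Steap4. They were selected on measured values of the same marker table that is described below, and every entry of these genes in any cluster was taken. Of the 9 genes, 7 had an entry, with 41 entries (a gene in a cluster) of 13337 in the whole table, which listed 3903 gene symbols. Serpina3g and Orm1 had none and are not described further by value.

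Preadipocytes from inguinal white adipose tissue (iWAT) of adult C57BL/6 mice were grown in culture and induced to become brown-like adipocytes (browning), and single cells were profiled by scRNA-seq. The 8 samples formed 4 groups of 2: wild type (WT) at day 0 and day 6, and mice with the genotype Hmgn1-/- Hmgn2-/- (double knockout, DKO) at day 0 and day 6. HMGN1 and HMGN2 are nuclear proteins that bind nucleosomes. All cultures were grown on collagen, and the cells that differentiated received insulin, dexamethasone, IBMX, T3 and rosiglitazone for 4 days, then insulin and T3. The glucocorticoid dexamethasone was thus part of the induction in both genotypes. Its part in the shares below was not tested and cannot be told apart from that of the other components or of the day. The table used gives, for 12 clusters numbered 0 to 11, the share of cells in which a gene was detected, within the cluster and outside it. Cells of all 8 samples were pooled in it, so no value per sample, genotype or day could be given, no replicate error exists and no difference was tested. What follows is a description of 1 pooled set of cells.

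The acute phase is the early systemic response to infection or injury, in which interleukin-6, interleukin-1 and glucocorticoids raise the synthesis of a set of plasma proteins through STAT3, NF-kB and C/EBP factors. The liver is the main source, but adipocytes and their precursors also make haptoglobin, serum amyloid A3 and lipocalin-2, and fat is a known source of these proteins in obesity. A2m encodes alpha-2-macroglobulin, a large secreted trap for proteases. Serpina3n encodes a secreted serine protease inhibitor, and Serpina3g a related serpin that acts mostly inside the cell. Saa3 is the serum amyloid A made mainly outside the liver, Lcn2 encodes a protein that binds the iron carriers of bacteria, and Orm1 encodes a plasma carrier of lipids and drugs. Hp encodes haptoglobin, which binds free hemoglobin, and Cp encodes ceruloplasmin, a copper protein that oxidizes iron. Steap4 encodes a membrane enzyme that reduces iron and copper, and its product is not secreted.

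In the mouse genome (GRCm38, GENCODE vM21) all 9 genes were annotated as protein-coding. A2m lies on chr6:121635376-121679227 on the plus strand, Saa3 on chr7:46711998-46715700 on the minus strand and Hp on chr8:109575128-109579172 on the minus strand. Lcn2 lies on chr2:32384633-32388252 on the minus strand, Cp on chr3:19957054-20009145 on the plus strand, Steap4 on chr5:7960457-7982213 on the plus strand and Orm1 on chr4:63344560-63348163 on the plus strand. Serpina3n, chr12:104406729-104414329, and Serpina3g, chr12:104236245-104241939, lie on the plus strand of the same chromosome. The libraries read the 3′ end of transcripts, so the last 500 bases of the longest transcript of each gene were searched, in windows of 60 bases, in the transcripts of all other genes. For A2m, Serpina3n, Hp, Lcn2, Cp and Steap4, 0 of 441 windows were found elsewhere. For Saa3, 46 of 441 windows (10.4%) occurred in transcripts of other, unrelated genes. For Orm1, which had no entry, 127 windows (28.8%) were shared with Orm2 and Orm3, and for Serpina3g 1 window (0.227%) was shared with Serpina3f. Reads from a shared window cannot be told apart by their sequence.

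The 250 bases before the start of transcription are printed for 3 genes that were detected in more cells of cluster 11, described below, and that differ in their matches to acute-phase motifs. They come from RefSeq (GRCm38.p6), are written 5′ to 3′ on the strand of the gene, and carry in capitals the letters that matched a motif on either strand. The Saa3 promoter lies at chr7:46715677-46715926 on the minus strand, the Serpina3n promoter at chr12:104406458-104406707 on the plus strand and the Steap4 promoter at chr5:7960222-7960471 on the plus strand. The RefSeq starts of Saa3 and Steap4 lie inside the GENCODE genes, so the last bases of their windows are annotated there as transcribed.
Saa3: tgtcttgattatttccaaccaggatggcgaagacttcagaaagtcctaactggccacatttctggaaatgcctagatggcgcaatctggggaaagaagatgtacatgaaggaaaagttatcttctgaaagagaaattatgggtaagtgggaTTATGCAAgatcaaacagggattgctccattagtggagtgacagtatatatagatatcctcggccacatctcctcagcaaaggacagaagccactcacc
Serpina3n: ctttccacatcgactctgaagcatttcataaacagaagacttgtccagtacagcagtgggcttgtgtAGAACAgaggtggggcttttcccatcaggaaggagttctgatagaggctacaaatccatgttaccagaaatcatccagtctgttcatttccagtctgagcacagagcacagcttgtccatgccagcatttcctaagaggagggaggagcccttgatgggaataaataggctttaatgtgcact
Steap4: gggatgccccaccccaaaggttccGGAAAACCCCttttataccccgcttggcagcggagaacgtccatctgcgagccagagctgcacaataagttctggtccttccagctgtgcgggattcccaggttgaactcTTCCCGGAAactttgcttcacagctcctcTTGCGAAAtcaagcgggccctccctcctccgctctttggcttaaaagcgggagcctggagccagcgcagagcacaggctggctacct

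The motifs searched were TTGCNNAA for C/EBP factors, TTCNNNGAA for STAT factors, AGAACA for the glucocorticoid receptor and the NF-kB motif, and also TATAAA on the strand of the gene, which none of the 3 printed promoters held. Saa3 held a C/EBP match 99 to 92 bases before its start. Serpina3n held the AGAACA match 183 to 178 bases before its start and none of the other motifs. Steap4 held a C/EBP match at 87 to 80, a STAT match at 116 to 108 and an NF-kB match at 226 to 217 bases before its start, and none of these matches overlapped. Of 32851 mouse promoters of the same length, 9.56% held the C/EBP letters, 7.02% the STAT letters, 5.00% the NF-kB motif, 16.1% AGAACA and 7.59% TATAAA. A match is a description of the letters, and no binding was measured here. RefSeq promoters were found for 6 of the 9 genes, and those of A2m, Hp and Orm1 were not analysed here.

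A gene is called higher in a cluster when the share of cells in which it was detected was at least 20 percentage points above that in all other cells, and lower when it was at least 20 points below. Detection means that at least 1 molecule was counted in a cell. It does not give the amount per cell, and the mean level of a cluster can differ the other way. Free RNA and doublets (droplets with more than 1 cell) can add to such shares, and their part was not tested. The lowest listed shares were 0.4% for A2m, 6.9% for Serpina3n, 8.1% for Hp and 9.3% for Saa3. Of the 41 entries of these genes, 16 were higher and 14 lower. Of all 13337 entries, 28.3% were higher and 26.1% lower. The median difference was 6.3 points over the 41 entries and 2.7 points over the whole table. Just inside the limits stood A2m in cluster 11 (46.0% against 23.5%) and Serpina3n in cluster 5 (36.7% against 57.7%). Just outside stood Steap4 in cluster 8 (27.5% against 7.7%) and Serpina3n in cluster 4 (39.7% against 57.6%). Since the genes were selected on this table, these counts are given without a test and nothing is read from them.

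**Figure D1:**
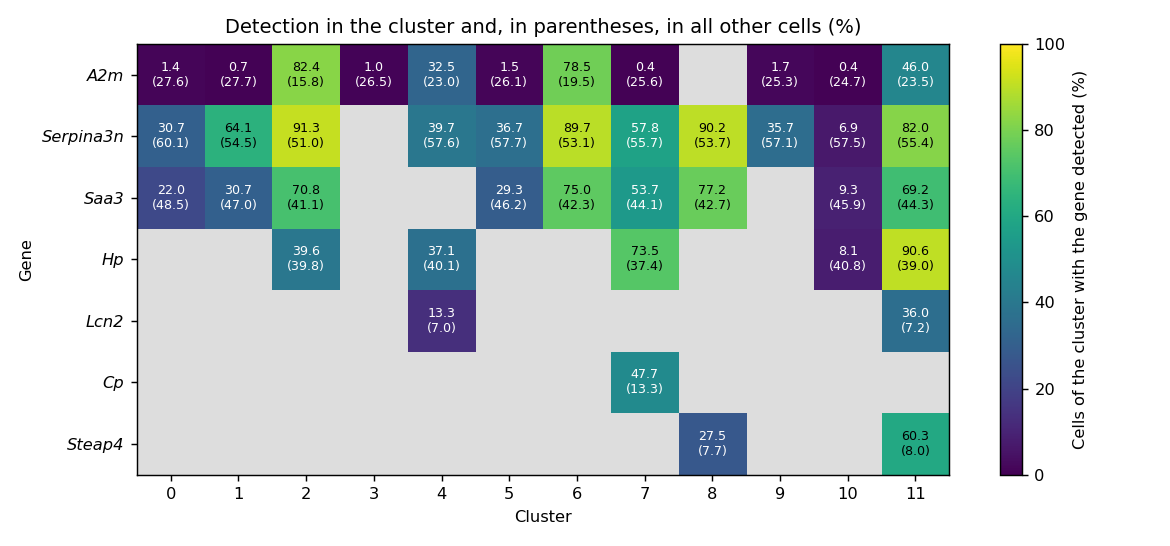
Share of cells (%) in which each gene (rows) was detected, by cluster (columns), with the share in all other cells in parentheses and grey where the table has no entry. A2m, Serpina3n and Saa3 have high shares in clusters 2 and 6, while Hp and Steap4 reach their highest listed shares, 90.6% and 60.3%, in cluster 11.

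The shares of cells held by the clusters were solved from the 10 genes listed for every cluster, and with them detection over all cells was computed. Serpina3n was detected in 55.9% of all cells, Saa3 in 44.7%, Hp in 39.8% and A2m in 23.9%. Cp was detected in 15.6%, Steap4 in 8.83% and Lcn2 in 7.62%. The estimates that different clusters gave for the same gene spread by at most 0.098 points, less than the gaps in this order. All of them used the same solved shares. Lcn2 and Steap4 had only 2 entries each, and Cp had 1, for which no spread could be seen. The error between cultures is unknown.

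Among the protease inhibitors, A2m ranged over the listed clusters from 0.4% to 82.4% of cells. Cluster 2 had A2m detected in 82.4% of its cells against 15.8% of the cells outside, cluster 6 in 78.5% against 19.5%, and cluster 11 in 46.0% against 23.5%. In cluster 2 this was the largest difference of all 1133 entries. In cluster 4, A2m was detected in 32.5% of cells against 23.0%, although only 1.98% of the 2072 entries of that cluster were detected in more cells inside it. It ranked 20 of those 2072 from the top.

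In 7 other clusters A2m was detected in few cells. The shares were 1.4% for cluster 0, 0.7% for cluster 1, 1.0% for cluster 3, 1.5% for cluster 5, 0.4% for cluster 7, 1.7% for cluster 9 and 0.4% for cluster 10, against 24.7% to 27.7% of the cells outside them. The gap between these 7 clusters and cluster 4, the next lowest, was wide, and no listed cluster lay between 1.7% and 32.5%. Cluster 8 had no A2m entry, but the entries of the other clusters leave 60.3% for it (59.3% to 61.0% over those entries), against 21.6% in the listed clusters. Missing entries therefore do not mean that detection was equal to that in other cells. Of all cells with A2m detected, cluster 2 held 41.8%, cluster 6 24.5%, cluster 8 14.9% and cluster 4 13.0%. Cluster 11 held 2.89% of them, and each other cluster under 1%.

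Serpina3n was widespread, with its highest shares in the same clusters. Its share was 91.3% in cluster 2 against 51.0% outside, 90.2% against 53.7% in cluster 8, 89.7% against 53.1% in cluster 6 and 82.0% against 55.4% in cluster 11. Clusters 1 and 7 were closer to the other cells, at 64.1% against 54.5% and 57.8% against 55.7%. Serpina3n was lower in cluster 0 (30.7% against 60.1%), cluster 5 (36.7% against 57.7%), cluster 9 (35.7% against 57.1%) and cluster 10 (6.9% against 57.5%). For cluster 3, which had no entry, 47.2% was inferred (46.6% to 47.4%). Unlike A2m, Serpina3n thus remained detected in at least 30.7% of cells in every listed cluster other than cluster 10. Cells with Serpina3n detected were spread accordingly: cluster 2 held 19.8% of them, cluster 1 16.2%, cluster 6 12% and cluster 8 9.57%.

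Saa3, the serum amyloid A of extrahepatic tissue, had its highest listed shares in the same clusters as Serpina3n. The share was 77.2% in cluster 8 against 42.7% outside, 75.0% against 42.3% in cluster 6, 70.8% against 41.1% in cluster 2 and 69.2% against 44.3% in cluster 11. It was lower in cluster 0 (22.0% against 48.5%) and cluster 10 (9.3% against 45.9%). In clusters 1 and 5 it was detected in 30.7% and 29.3% of cells, against 47.0% and 46.2%, and in cluster 7 in 53.7% against 44.1%. Clusters 3, 4 and 9 had no entry and together were left with 42.6%, close to the 45.4% of the listed clusters. Some of the Saa3 transcript end occurs in other transcripts, as given above, and the part of this in its shares was not tested.

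Lcn2 had entries in 2 clusters. Cluster 11 had it detected in 36.0% of cells against 7.2% outside, and cluster 4 in 13.3% against 7.0%. In the 10 clusters without an entry it was left with 6.53% of cells. Although its highest listed share was in cluster 11, that cluster held 7.09% of the cells with Lcn2 detected, cluster 4 held 16.7% and the unlisted clusters 76.2%, because cluster 11 made up only 1.5% of all cells.

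Among the genes that handle heme and metals, Hp had its highest listed share in cluster 11, at 90.6% against 39.0%, and its next in cluster 7, at 73.5% against 37.4%. In cluster 7 it ranked 11 of 540 entries from the top. Hp did not share the pattern of the protease inhibitors: in cluster 2, where A2m was detected in 82.4% of cells, Hp was detected in 39.6%, against 39.8% of all other cells. In cluster 4 it was detected in 37.1% against 40.1%, and in cluster 10 it was lower, at 8.1% against 40.8%. The 7 clusters without an entry, among them clusters 6 and 8, together were left with 37.3%. They held 62.7% of all cells with Hp detected, cluster 7 held 12.2%, cluster 2 12.1% and cluster 11 3.42%.

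Cp had a single entry, in cluster 7, where it was detected in 47.7% of cells against 13.3% of all others. It ranked 14 of 540 entries there. Hp and Cp were the members higher in cluster 7, while A2m was lower there (0.4% against 25.6%). The other 11 clusters held 79.8% of the cells with Cp detected, at a share of 13.3%.

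Steap4 was higher in cluster 11, at 60.3% against 8.0%, and was detected in 27.5% of cluster 8 against 7.7%. The 10 other clusters were left with 6.81% of cells. Cluster 8 held 18.4% and cluster 11 10.3% of all cells with Steap4 detected.

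**Figure D2:**
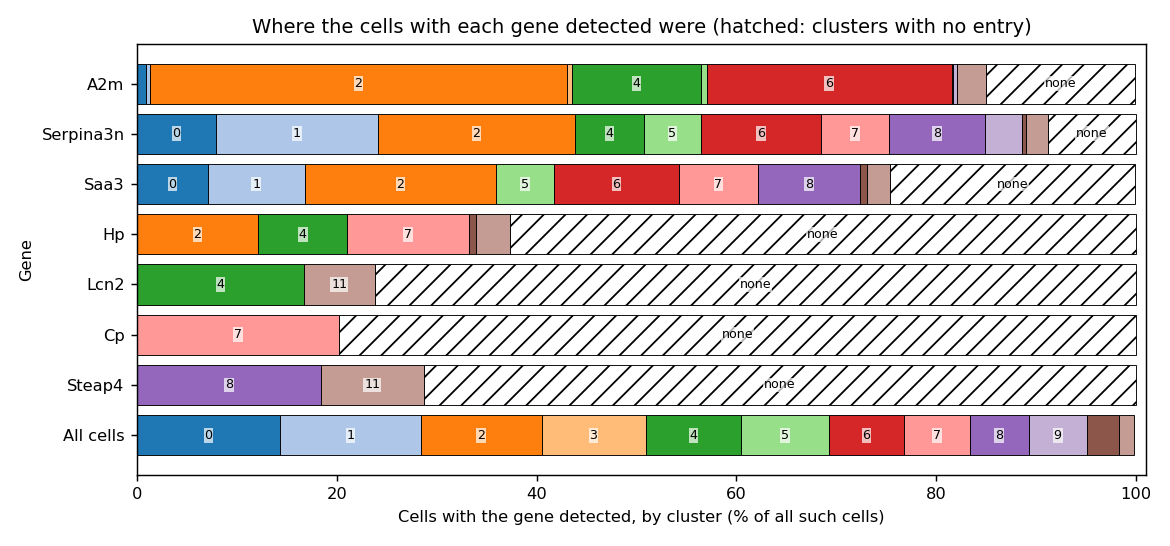
Share (%) of all cells with each gene detected that lay in each cluster, with all cells in the bottom bar. Hatched parts are the clusters without an entry for that gene, and cluster 2 holds 41.8% of the cells with A2m detected but 12.1% of all cells.

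Set against the other entries of the same cluster, the members stood as follows. In cluster 2, 3 of 4 listed members were higher (A2m, Serpina3n and Saa3), where 14.1% of all entries of that cluster were. In cluster 6, all 3 listed members were higher, against 43.6% of entries, and in cluster 8, 2 of 3 were, against 18.7%. In cluster 7, 2 of 5 were higher, against 22.4%, and 1 of 5 was lower, against 3.33%. Cluster 11 listed the most members, 6, and all 6 were detected in more of its cells by at least 20 points, against 35.0% of its 2487 entries. This is a count of cells with the gene detected and does not say that the mean level of any of the 6 was raised in cluster 11, which was not analysed here. Their median difference was 27.7 points, and the median over all entries of cluster 11 was 6.6. Within cluster 11 the members stood far apart: Steap4 ranked 182 and Hp 192 of 2487 from the top, and Lcn2 750, Serpina3n 796, Saa3 815 and A2m 848.

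The lower entries lay mostly in clusters whose other entries were detected in more cells. All 3 listed members were lower in cluster 0, against 2.59% of entries, and Serpina3n, Saa3 and A2m ranked 3, 6 and 7 of 694 from the bottom. In cluster 1, 1 of 3 was lower, against 3.98%. In cluster 3 the only listed member, A2m, was lower, against 9.13%. In cluster 5, 2 of 3 were lower, against 0.851%, and in cluster 9 both listed members were, against 0.426%, with A2m 3 and Serpina3n 4 of 938 from the bottom. In cluster 10 all 4 listed members were lower, but so were 92.6% of the 718 entries. In cluster 4 none of the 4 listed members was higher or lower, and their median difference was 1.6 points, where the median over its 2072 entries was -47.2 points. The table does not give molecules per cell, and the part of sequencing depth in these shares was not tested.

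**Figure D3:**
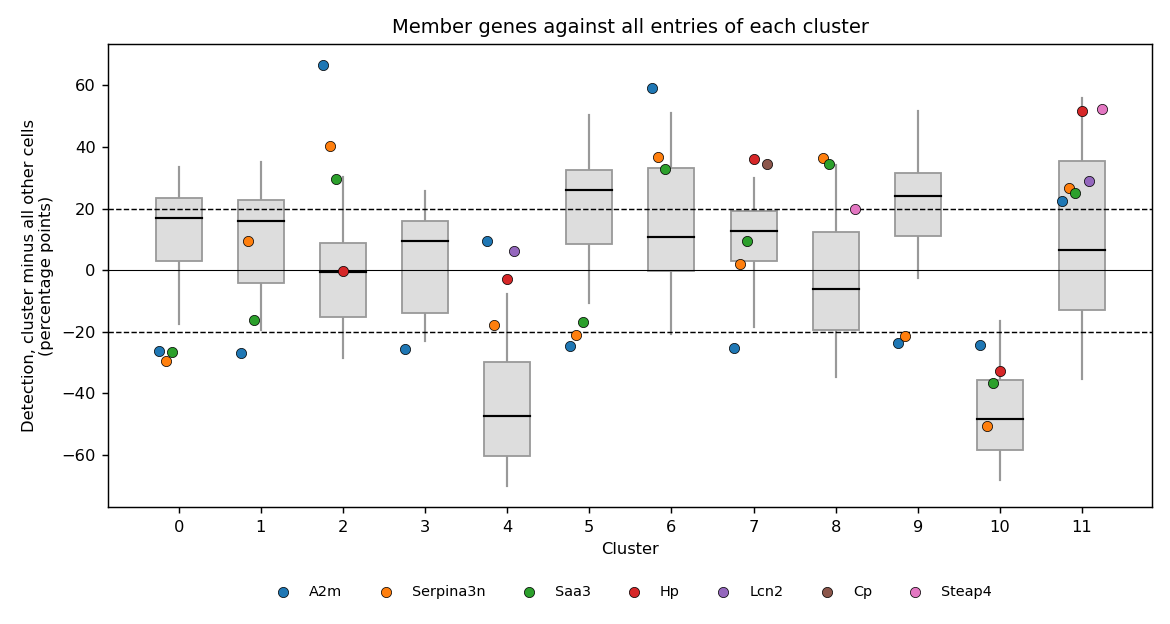
Difference in detection between each cluster and all other cells, in percentage points, for the member genes (points) and for all entries of the cluster (line at the median, box over the middle quartiles, whiskers from the 5th to the 95th percentile). Dashed lines mark 20 points, and A2m stands at the top of cluster 2 while all 6 members listed in cluster 11 lie above the upper line.

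Markers of cell types gave the setting of these clusters, which keep their numbers here. In cluster 11, the lipid droplet protein gene Plin1 was detected in 99.8% of cells against 14.4%, Adipoq in 92.1% against 17.6% and Pparg in 89.9% against 14.7%. The thermogenic regulator Ppargc1a was detected in 47.5% of cluster 11 against 1.8%, Cox7a1 in 72.3% against 13.8% and Elovl3 in 36.7% against 2.8%. Of the 8 thermogenic genes on the list only these 3 had entries. Ucp1, Cidea, Cox8b, Dio2 and Ppara had none in any cluster, which does not mean that they were undetected. Col5a3 and the member Serpina3n both marked differentiating cells in the study. Plin1 was detected in 27.8% of cluster 2 against 14.1%, 45.5% of cluster 6 against 13.3% and 50.6% of cluster 8 against 13.5%. Col5a3 was detected in 75.6%, 83.1% and 89.4% of them. All other adipocyte markers with an entry in cluster 2 were higher there. Cd36 stood at 68.4% against 24.1%, Car3 at 61.7% against 20.5%, Fabp4 at 99.6% against 70.1% and Adipoq at 40.1% against 15.8%. Cd36 was also higher in cluster 6 (78.2% against 25.6%) and cluster 8 (87.7% against 25.8%). Cd36, Car3 and Fabp4 were named here after their values were seen. Among listed clusters, Plin1 was highest in cluster 11 and A2m in cluster 2.

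Proliferation genes did not follow the protease inhibitors. Mki67, a marker of cycling cells, was detected in 92.0% of cluster 6, 91.2% of cluster 9 and 78.6% of cluster 5. A2m was detected in 78.5% of cluster 6, but in 1.7% of cluster 9 and 1.5% of cluster 5, and Serpina3n in 89.7%, 35.7% and 36.7%. Birc5, another cycling gene, was detected in 88.3%, 95.5% and 79.9% of clusters 6, 9 and 5. Pclaf stood at 92.0% of cluster 5 against 17.3%.

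The study removed immune, glial and endothelial cells before this clustering. Of 10 immune, 5 endothelial, 4 glial and 4 hepatocyte marker genes, 0 had an entry in any cluster, and of 7 mesothelial markers Krt19 alone had entries (34.7% of cluster 9 against 11.3%, and 27.6% of cluster 0 against 10.2%). These lists hold no entry in clusters 2, 6, 7, 8 and 11, where the members were higher. In cluster 4 the preadipocyte markers with the largest differences were detected in fewer cells than outside, as were most of its entries, with Itgb1 in 19.6% against 93.7%, F3 in 11.2% against 83.1% and Ly6a in 20.9% against 80.1%. Of the adipocyte markers, 5 of 10 were higher in cluster 4, where 1.98% of 2072 entries were detected in more cells by any amount. Cd36 stood at 69.0% against 25.3%, Car3 at 62.1% against 21.7% and Scd1 at 97.7% against 61.7%. Fabp4 stood at 98.5% against 71.0% and Adipoq at 40.5% against 16.4%. The others were neither higher nor lower. Plin1 stood at 29.3% against 14.3%, Cidec at 15.5% against 5.7% and Plin4 at 12.1% against 9.7%. Lpl stood at 88.7% against 92.5% and Pparg at 11.7% against 16.3%. All but Adipoq were named here after their values were seen. In clusters 0, 1 and 3, where A2m was detected in at most 1.4% of cells, F3 was higher, at 95.7%, 99.1% and 96.4%. Other preadipocyte markers differed. Mmp3 was higher in cluster 1 (87.7% against 42.6%) and cluster 3 (76.2% against 45.7%), but not in cluster 0 (45.0% against 49.6%). Itgb1 was not higher in cluster 0 (98.8% against 84.5%) or cluster 1 (98.6% against 84.6%). Ly6a and Pdgfra had no entry in clusters 0, 1 and 3.

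Other genes listed as acute-phase or related did not share a common pattern. Their list joined proteins that rise and proteins that fall in the acute phase. Of its 32 genes, 9 had entries, 75 in all, with 12 higher and 24 lower and a median difference of -4.3 points. Of all 13337 entries, 28.3% were higher and 26.1% lower. The counts for this list and the lists below stand beside these shares and were not tested. Only 1.98% of the entries of cluster 4 and 0.139% of those of cluster 10 were detected in more cells inside. Low shares in these 2 clusters are therefore not particular to the lists. Rbp4, the retinol carrier that falls in plasma during the acute phase, was detected in 99.6% of cluster 11 against 38.6%, 94.6% of cluster 8 against 36.1% and 86.7% of cluster 6 against 35.7%. Lrg1, which encodes a secreted leucine-rich glycoprotein, was detected in 80.0% of cluster 11 against 15.4%, and in 33.0% of cluster 6 against 15.1%. Serpinf1 and Serpinb6a, which encode serpins of other clades, were detected in 10.1% against 88.1% and 18.1% against 90.9% of cluster 4. Lbp and Serping1, named after their values were seen, were higher in clusters 7 and 1. In cluster 7 they stood at 58.7% against 31.7% and 97.4% against 68.1%, and in cluster 1 at 64.3% against 28.4% and 99.1% against 65.2%. Both were lower in clusters 4, 8 and 11.

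Of 13 relatives of Serpina3n and A2m, Serpina3m alone had entries. Serpina3m was detected in 45.1% of cluster 2 against 7.8%, 40.5% of cluster 8 against 10.5% and 39.2% of cluster 6 against 10.1%. In clusters 0, 1, 5, 7 and 10 it was detected in 0.2% to 1.5% of cells. Its shares were thus at most 1.5% in 5 clusters in which those of A2m were also at most 1.5%. No 60-base window of the last 500 bases of Serpina3n was found in Serpina3m or any other gene.

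Genes of iron, copper and heme handling, 18 on the list, had 38 entries for 10 genes, 8 higher and 5 lower, with a median difference of 0.5 points. Cluster 11, where Steap4, Hp and Lcn2 had their highest listed shares, also showed Aco1, the iron-responsive aconitase, in 90.3% of cells against 26.5%, and the transferrin receptor gene Tfrc in 84.2% against 28.5%. Slc39a14, a metal importer, was instead detected in 90.1% of cluster 2 against 41.7% and in 79.0% of cluster 6 against 45.0%, where A2m was high, and in 36.7% of cluster 11 against 47.8%. Hmox1, which degrades heme, was detected in 12.4% of cluster 4 against 63.3%. The relatives of Steap4, chosen for naming after their values were seen, were detected in fewer cells of cluster 11 than outside: Steap1 in 12.8% against 29.2%, Steap2 in 12.9% against 36.8% and Steap3 in 14.9% against 30.3%. Steap2 was higher in cluster 2 (58.4% against 33.4%) and cluster 6 (61.2% against 34.5%), and the other entries of these 3 genes are those just given.

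Of 10 receptors for these proteins, 3 had entries. Lrp1, the receptor that clears protease-bound alpha-2-macroglobulin, was detected in 25.6% of cluster 10 against 91.6%. In its other listed clusters it was detected in at least 85.1% of cells, with 99.0% of cluster 2 against 88.2% and 99.2% of cluster 8 against 88.9%. Scarb1, which takes up lipid from serum amyloid A particles, was detected in 46.6% of cluster 11 against 10%. The chaperone gene Hspa5 was detected in 55.3% of cluster 4 against 96.4%. Of the 10 entries, 1 was higher and 2 were lower, with a median of 6.7 points.

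Of 21 genes of interleukin-6, interleukin-1 and STAT3 signalling, 11 had entries, 48 in all, with 9 higher, 14 lower and a median of 2.9 points. The receptor subunit gene Il6st was detected in 95.1% of cluster 1 against 77.1%, 94.3% of cluster 2 against 77.6%, 60.6% of cluster 11 against 79.9% and 15.0% of cluster 10 against 81.8%. In cluster 1 the cytokine gene Il6 was detected in 47.5% against 17.4% and the feedback inhibitor gene Socs3 in 55.8% against 36.2%. Il1r1 was higher in cluster 2 (92.0% against 58.1%), cluster 6 (93.0% against 59.7%) and cluster 8 (82.5% against 60.9%). It was lower in cluster 11 (36.5% against 62.6%) and cluster 10 (5.7% against 64.1%). Nfkbia was higher in cluster 6 (83.8% against 50.2%), cluster 8 (82.4% against 50.8%) and cluster 11 (89.6% against 52.1%). It was lower in cluster 10 (4.3% against 54.3%). Il6, Socs3, Il1r1 and Nfkbia were named after their values were seen, and a link to the members was not tested. Osmr, the oncostatin M receptor, was detected in 91.0% of cluster 2 against 66.0%, 41.4% of cluster 11 against 69.4% and 7.8% of cluster 10 against 71.0%. Jak1 and Tnfrsf1a were detected in 17.5% against 88.0% and 13.0% against 77.8% of cluster 4.

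All 5 C/EBP genes had entries, 15 in all, with 4 higher, 4 lower and a median of 7.7 points. Cebpa, which acts late in fat cell differentiation, was detected in 98.7% of cluster 11 against 26.1% and 49.4% of cluster 8 against 25.8%. Cebpd, which acts early in it, was detected in 89.5% of cluster 1 against 64.0%, 44.1% of cluster 11 against 68.0% and 10.7% of cluster 10 against 69.5%. Cebpg was detected in 80.2% of cluster 11 against 43.7%, and Cebpb in 98.5% of cluster 1 against 88.3%.

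All 11 glucocorticoid response genes had entries, 53 in all, with 15 higher, 10 lower and a median of -7.6 points. Fkbp5, a glucocorticoid-induced chaperone partner, was detected in 82.0% of cluster 6 against 29.0%, 78.4% of cluster 8 against 30.1% and 61.7% of cluster 2 against 29.0%. It was detected in 12.6% of cluster 1 against 36.3% and 10.1% of cluster 7 against 34.6%. Clusters 2, 6 and 8 were also those with the highest listed Serpina3n and Saa3 shares, and a link between these shares was not tested. Fkbp5 had no entry in cluster 11, where Serpina3n and Saa3 were also higher. Angptl4, an inhibitor of lipoprotein lipase, was detected in 94.1% of cluster 11 against 32.6% and 85.0% of cluster 8 against 30.3%. Klf9 and Errfi1 were both detected in 7.7% of cluster 10, against 77.1% and 65.6%. Klf9 was higher in cluster 8 (95.4% against 73.6%). Errfi1 was higher in cluster 2 (92.3% against 59.8%) and cluster 6 (90.2% against 61.7%). It was also lower in cluster 3 (45.2% against 65.9%) and cluster 4 (29.3% against 67.4%). Zbtb16 was higher in cluster 6 (54.9%), cluster 8 (60.2%) and cluster 11 (59.7%). In its other listed clusters its share was below that outside. The Zbtb16 shares, and those of Klf9 and Errfi1 outside cluster 10, were named after their values were seen.

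The genes with the most similar shares were sought for the 3 members listed in at least 8 clusters, by Pearson r over the clusters that both genes were listed for. The clusters share cells, libraries and depth, so r is a description. For A2m the closest of 285 genes were Folh1, which encodes a folate hydrolase (r = 1.00 over 8 clusters), the collagen gene Col5a3 (0.96 over 8) and the basement membrane gene Nid2 (0.95 over 9). The clusters shared with Folh1 left out clusters 4, 8, 9 and 11. In those kept, A2m stood at 82.4% in cluster 2, 78.5% in cluster 6 and at most 1.5% in the rest. The r with Folh1 thus rests on the contrast of clusters 2 and 6 with the others. For Serpina3n they were Rgcc, a cell cycle regulator (0.96 over 9), Alas1, the first enzyme of heme synthesis (0.95 over 9), and Saa3 (0.95 over 9), of 363 genes. For Saa3 they were AY036118 (0.99 over 8), the mitochondrial leucine tRNA synthetase gene Lars2 (0.98 over 8) and the mitochondrially encoded mt-Nd6 (0.98 over 8), of 132 genes. Between A2m and Serpina3n r was 0.79 over 10 clusters, and between A2m and Saa3 0.85 over 8.

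**Figure D4:**
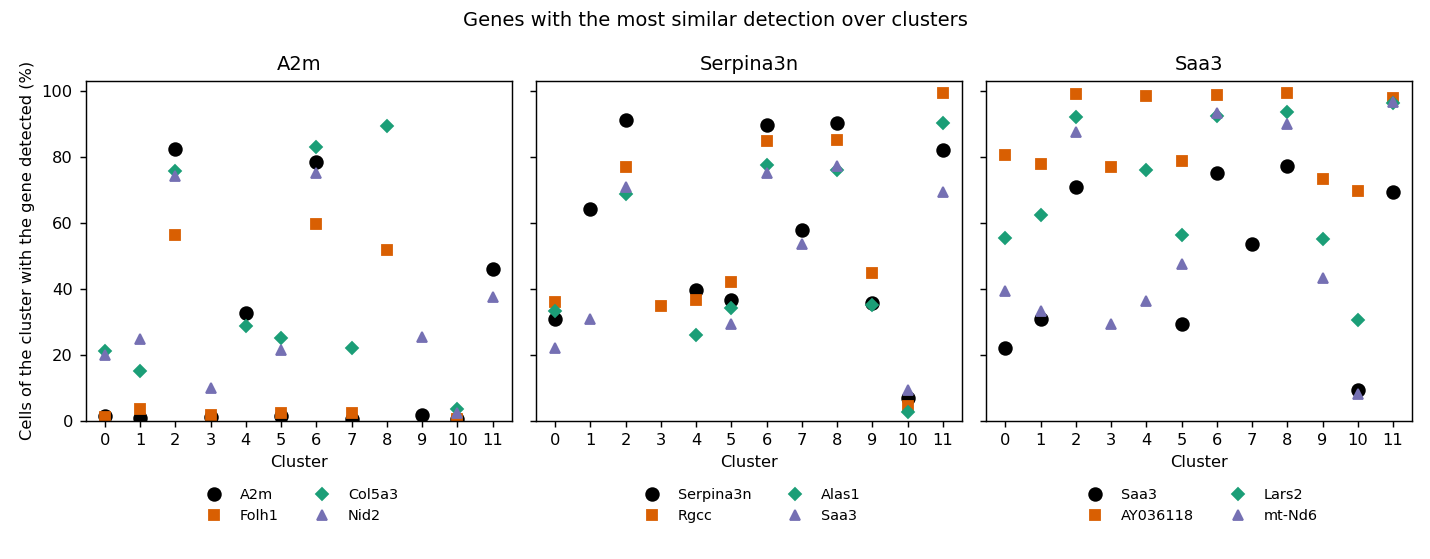
Share of cells (%) in which A2m, Serpina3n and Saa3 (black) and their 3 most similar genes (colours) were detected in each listed cluster. Folh1 follows A2m with shares near 0 in the same clusters, while AY036118 stands well above Saa3 in every cluster that both list.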

How the data were processed

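Single-cell RNA libraries of 8 samples in 4 groups of 2 (WT and DKO, day 0 and day 6) were made by the authors on the 10x Chromium platform with 3′ chemistry, mapped to mm10 with Cell Ranger 6.0.0 (as in the submitters' processing notes), equalized in read depth, filtered on genes and mitochondrial reads, and clustered in Seurat with all samples pooled. How doublets were treated is not given in the sources used here, and none could be called from the table. The values used were the detection fraction inside each cluster and in all other cells, as deposited by the authors, printed here as percent. The deposited table also holds the authors' own comparison of each cluster with the rest (mean log fold changes and MAST p-values), which was not used. Entries were kept by the authors on that comparison, and the larger detection of an entry was never under 10.1%. Depth, cell numbers and values per sample were not given in the table, so no interval, replicate error or test was possible.

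From the fractions, the share of cells per cluster was solved by least squares from the 10 genes listed for every cluster (Python 3.11.15, numpy 2.4.6, pandas 2.3.3, scipy 1.17.1, matplotlib 3.10.9). The solved shares summed to 99.9%. Tested on simulated data, 12 shares were recovered within 0.066 points. Gene symbols written as dates, 7 of them, were left out of that step. The members, lists and the 20-point limit were chosen with earlier results of these data known, and the motifs with the data in view. The NF-kB motif was made stricter after its share of promoters was seen. Named genes were all members, up to 4 genes per list and up to 3 markers per list with the largest absolute difference, and the 3 most similar genes per member. Steap1 to Steap3, Il6, Socs3, Il1r1, Nfkbia, Zbtb16, Lbp, Serping1 and Mmp3 were added after their values were seen. So were the shares of Cd36, Car3 and Fabp4, and the cluster 4 shares of all other adipocyte markers but Adipoq. Positions and transcripts came from GENCODE vM21.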

Additional observations from a re-analysis of the deposited data

How the results depend on the processing

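Of 43 alternatives, 39 kept the cluster or stayed near the main value, and 4 moved. The count of member entries called lower, 14 at 20 points, was 3 at a limit of 30 points. The count of entries called higher for other acute-phase and iron-handling genes, 20 at 20 points, was 35 at 10 points, 11 at 30 points and 43 by the ratio of -ln(1 - detection), which spreads out values near 100%. These follow from the limit or scale itself. Member entries called higher, 16 in the main count, ranged from 11 to 19. The cluster with the largest excess was the same in all 21 alternatives run for it, and detection over all cells moved by at most 0.0074 points when the cluster shares were solved from 2687 genes. No paired analysis was possible because cells of every sample are pooled, and leaving out a replicate was not possible for the same reason. Depth per cell was not known, so a low share in clusters 4 and 10 cannot be told apart from shallow cells.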
